A study of Gallus gallus with 28 samples.

Results

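The latest treated time points of a hair cell damage series were compared with the tissue it started from. The series is from chicken basilar papilla, the auditory sensory epithelium of the bird inner ear. The labels describe dissected papillae that received streptomycin for 24 h, followed by a recovery period. The series has 28 libraries in 16 groups, treated and control at each of 8 time points. The comparison takes 6 of these 28 libraries, chosen by their labels: 4 recovered libraries, treated with streptomycin and taken at 144 h (2) and 168 h (2), and 2 starting libraries, untreated controls taken at 0 h. The 4 untreated controls of 144 h (2) and 168 h (2), called late controls here, are shown beside them, since recovered and starting papillae differ in both damage and time after dissection. The labels do not say from which event 0 h is counted, nor whether the controls of 0 h also spent 24 h in culture. All groups share dissection, and the labels give no age, strain or animal for any library. The series text calls the 2 libraries of a time point biological samples but does not say that they came from separate animals or cultures, so the p-values here cover the spread among the libraries and nothing beyond it.

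The basilar papilla holds mechanosensory hair cells set among supporting cells, under a tectorial membrane that supporting cells secrete in part. Aminoglycosides such as streptomycin kill hair cells. In birds, unlike in adult mammals, supporting cells can then divide or convert directly into new hair cells, with ATOH1 as the proneural factor that starts the hair cell programme and Notch signalling holding it back. Papillae of this kind also contain nerve endings, glia, blood cells, resident macrophages and connective tissue.

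Values are RPKM, the authors' read density scaled to gene length and library size. The recovered libraries held 16.48 to 19.66 M alignments, the late controls 16.69 to 19.45 M and the starting libraries 19.29 and 28.85 M. Differences were fitted with limma on log2(RPKM + 1) over all 28 libraries and 12195 features, and a feature was called at a Benjamini-Hochberg adjusted p under 0.05. A fitted difference on this scale understates the change of genes with low values. The recovered and late control comparisons share the same 2 starting libraries, so their values are set side by side, and the difference between them was tested as treated minus control at 144 and 168 h. Counts of list members under 5, and some larger ones, could move by more than 1.5 times when 1 library was left out. List counts are to be read against the shares called over all features. The lists were chosen with earlier results of these data known, so their counts and medians are descriptions. These were 21.8% higher and 18.8% lower for recovered papillae, and 23.7% and 16% for late controls. For treated minus control they were 4.02% and 10.3%. In the values below, the 2 libraries of 144 h stand before the 2 of 168 h. Genes picked as the largest differences of a comparison had to show no overlap between its libraries. For those genes that separation, in the text and in the captions, follows from the choice and is no added result. The starting libraries carried the markers of the labelled tissue, with 85.1 and 99.1 RPKM of the hair cell gene OTOF, 43.7 and 49.3 RPKM of the supporting cell gene SOX2 and 1424 and 1464 RPKM of the tectorial membrane gene TECTB.

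Recovered papillae were far from the starting tissue across the transcriptome. The root mean square difference in log2(RPKM + 1) between a recovered and a starting library was 0.777 to 0.893 (mean 0.843, 8 pairs), against 0.309 between the 2 starting libraries, 0.370 between those of treated 144 h and 0.468 between those of treated 168 h. Late controls stood at 0.789 to 0.840 from the starting libraries (mean 0.814, 8 pairs), a range that lies inside that of the recovered libraries. Recovered libraries were nearer to late controls, at 0.401 to 0.588 (mean 0.488, 16 pairs). These pairs share libraries and carry no test.

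**Figure D1:**
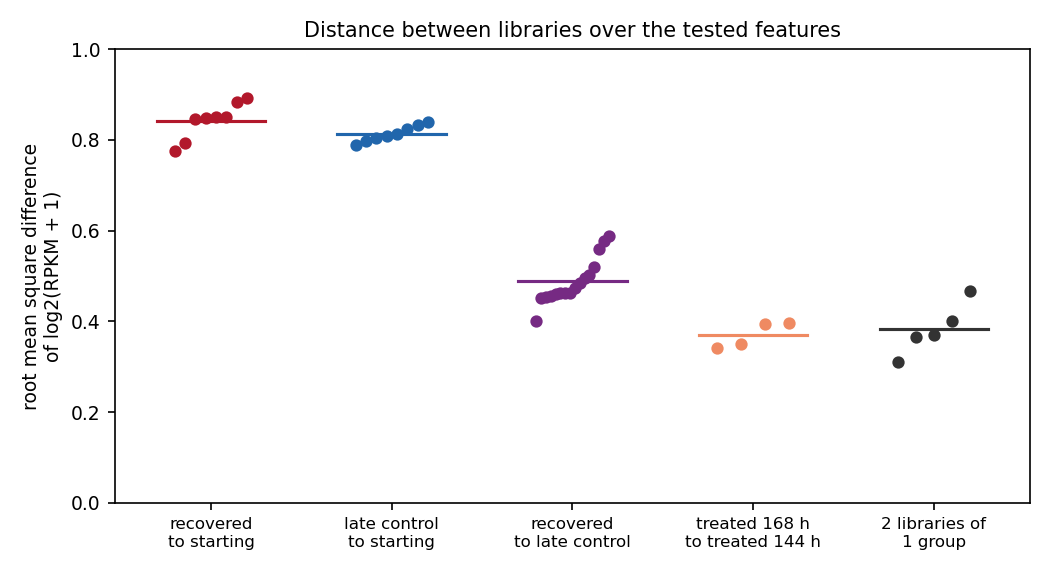
Root mean square difference in log2(RPKM + 1) over the 12195 tested features for each pair of libraries (points), with the mean of each kind of pair as a line. The recovered to starting pairs (mean 0.843) and the late control to starting pairs (mean 0.814) sit together, above the recovered to late control pairs (mean 0.488), which overlap the pairs within 1 group (0.309 to 0.468) and have a higher mean than the pairs between the 2 recovered times.

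By limma, 4958 of the 12195 features (40.7%) were called between recovered and starting papillae, 2663 higher (21.8%) and 2295 lower (18.8%). Of these, 848 rose (6.95% of features) and 894 fell (7.33%) by at least 2-fold. For 8080 features (66.3%) the 95% interval of the fitted difference lay within 2-fold of the starting level, and for 763 (6.26%) it lay wholly beyond it. The late controls gave a count of like size against the same starting libraries: 4842 called (39.7%), 2894 higher (23.7%) and 1948 lower (16%), with 8136 intervals (66.7%) within 2-fold. The interval counts depend on the pseudocount. With 0.1 in place of 1, 6230 (recovered) and 6377 (late control) intervals lay within 2-fold. Treated minus control at 144 and 168 h gave 1750 calls (14.4%), 490 higher (4.02%) and 1260 lower (10.3%), of which 33 higher (0.271% of features) and 191 lower (1.57%) reached 2-fold. The balance of directions depends on how libraries are scaled. With median-of-ratios rescaling, 2523 features were higher and 2787 lower in recovered papillae, so the share of calls that were higher was 47.5% in place of 53.7%. It was 48.6% in place of 59.8% for late controls and 44.1% in place of 28% for treated minus control. The median over all features in the late control comparison was then -0.02 in place of 0.09. Without replicate 1 of the starting tissue 1602 features were called higher in recovered papillae, and without its replicate 2 1512 were called lower. Leaving out 1 library at a time gave 172 to 510 higher and 636 to 1586 lower calls for treated minus control.

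The mechanotransduction, hair bundle and synapse lists of hair cells had the lowest medians of the gene lists in recovered papillae relative to the starting tissue, while the lists of hair cell transcription factors (median -0.65) and calcium buffers (-0.25) lay nearer to 0. The word recovered thus names the time since streptomycin, and not a return of these genes to their starting level. In the list of mechanotransduction and tip link genes, 12 of 15 tested members fell and none rose, with a median log2 difference of -2.59 against 0.07 over all features. Late controls had 11 of these 15 lower than the starting tissue, with a median of -1.47. Treated minus control at 144 and 168 h was called lower for 10 of the 15, with a median of -0.63 against -0.05 over all features. Among hair bundle genes 19 of 24 fell and 3 rose in recovered papillae (median -2.23), 18 fell and 2 rose in late controls (median -1.26), and 13 were lower in treated than in control papillae at the late times. Among hair cell synapse genes 18 of 21 fell and 1 rose (median -1.60), 16 fell in late controls (median -1.02), and 14 were lower in treated than in control papillae at the late times. In tissue of mixed cells, fewer hair cells and less RNA per hair cell cannot be told apart. The neuron marker list, which names SNAP25 and SYT1 as the synapse list does, moved less. Of its 16 tested members 9 fell and 2 rose in recovered papillae (median -0.48, and -0.49 in late controls). Treated minus control was called lower for 4 of the 16 and higher for 1. The summed RPKM of neuron markers was 440 to 701 in recovered, 411 to 506 in late control and 625 to 673 in starting libraries. The recovered sums thus spread around the starting ones. The neurofilament gene NEFM had 0.335, 0.375, 0.229 and 0.429 RPKM in recovered papillae. In late controls NEFM was at 1.31, 1.54, 1.16 and 1.33 RPKM, and in the starting tissue at 21.9 and 21.6 RPKM. Their part in the fall of the hair cell lists was not tested.

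**Figure D2:**
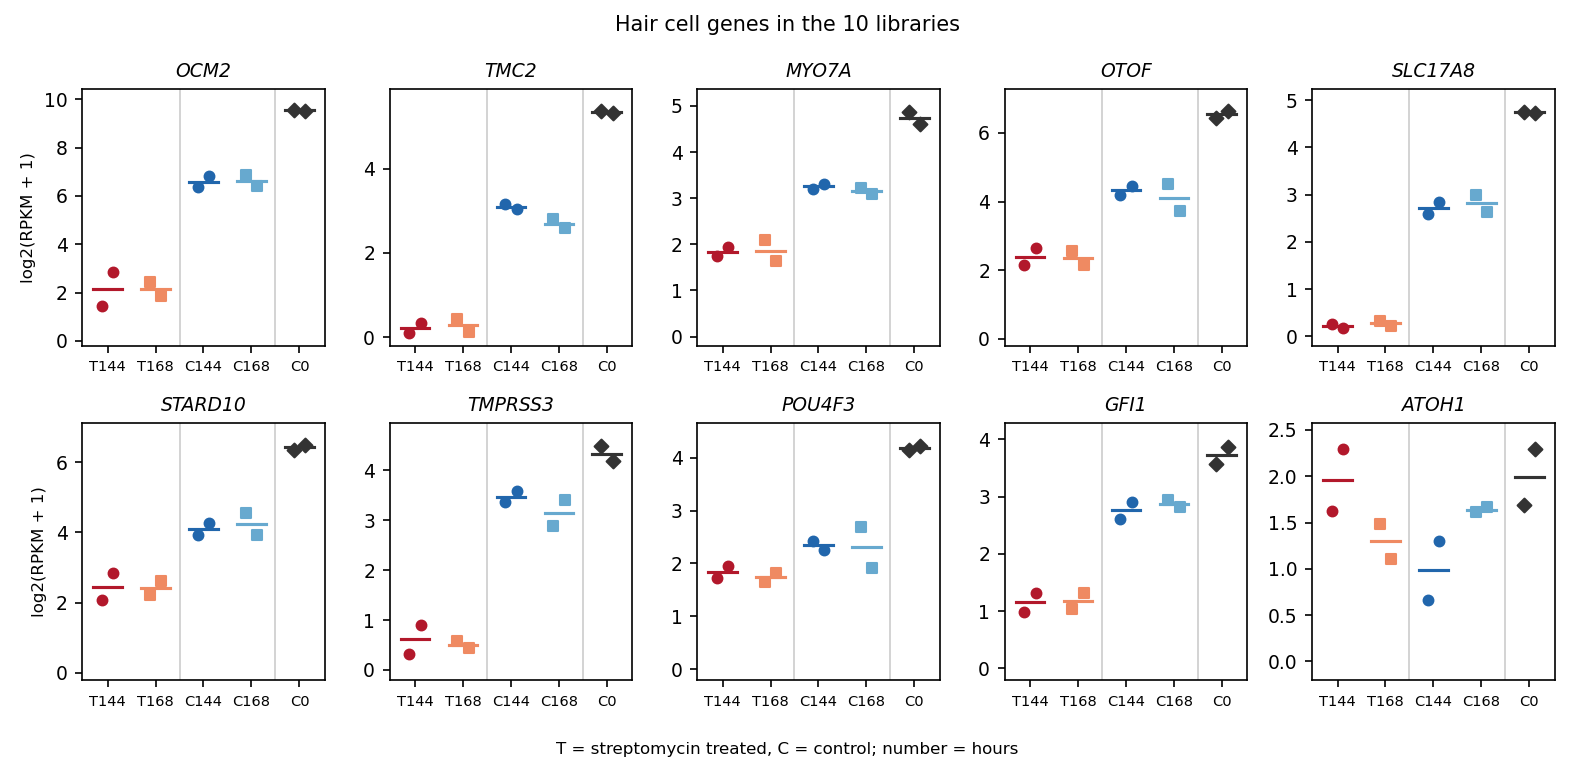
Levels of 10 hair cell genes as log2(RPKM + 1) in each library (points), with the group mean as a line, for treated (T144, T168), control (C144, C168) and starting (C0) papillae. In 9 of the 10 panels both treated groups lie below the starting libraries. In ATOH1 treated 144 h overlaps the starting libraries and treated 168 h lies below them.

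The calcium buffer gene OCM2, of the oncomodulin type of parvalbumins that hair cells make in quantity, had the largest fitted fall of the features named here on the log2(RPKM + 1) scale. It had 1.74, 6.17, 4.404 and 2.59 RPKM in recovered papillae. The values were 81.1, 112, 115 and 84.3 RPKM in late controls and 755 and 737 RPKM in the starting tissue. The 3 groups did not overlap, and the recovered mean was 0.5% of the starting mean, against 13.2% for the late controls. The choice of OCM2 as a large difference required its recovered libraries to lie apart from starting and late control libraries. The fitted difference from the starting tissue was -7.40 ± 0.32 (SE, limma adjusted p = 1.7e-11) for recovered papillae and -2.93 ± 0.32 (SE, limma adjusted p = 1.54e-06) for late controls, and treated minus control was -4.47 ± 0.26 (SE, limma adjusted p = 6.04e-09). Reads of near-identical parvalbumin copies could have been split between features. CALB1, a calbindin that chick hair cells also make, had 26.2, 52.5, 17.98 and 9.704 RPKM in recovered papillae. It stood at 32.6, 50.97, 35.6 and 45.5 RPKM in late controls and at 835 and 776 RPKM in the starting tissue. All 8 late libraries lay below both starting libraries, recovered and late control values overlapped, and treated minus control was not called (-0.83 ± 0.29 (SE, limma adjusted p = 0.0594)), though it was without replicate 2 of treated 144 h (-1.08, adjusted p = 0.0299) or replicate 1 of treated 168 h (-1.04, 0.0498). Of the 9 tested calcium buffer genes 3 fell and 1 rose in recovered papillae (median -0.25), the third fall being that of CIB2, a partner of the transduction channel (-3.55, limma adjusted p = 1.66e-07). PVALB, another parvalbumin, rose to 4.15, 7.64, 11.5 and 15.5 RPKM in recovered papillae. Late controls had 8.93, 10.8, 9.95 and 15.03 RPKM and the starting tissue had 1.01 and 1.38 RPKM. CALB2, calretinin, was not called in recovered papillae (-0.86 ± 0.38 (SE, limma adjusted p = 0.0775)), though it was without replicate 2 of treated 144 h (-1.08). Treated minus control of CALB2 was called (-1.05, limma adjusted p = 0.0296), but that call was lost under 5 of 14 alternatives.

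TMC2, a subunit of the mechanotransduction channel, had 0.0792, 0.259, 0.347 and 0.0983 RPKM in recovered papillae. In late controls TMC2 was at 7.86, 7.26, 5.93 and 5.06 RPKM, and in the starting tissue at 39.95 and 39.1 RPKM. Recovered values were all under 1 RPKM and every group was separate. As for OCM2, the choice of TMC2 required its recovered libraries to lie apart from starting and late control libraries. The fitted difference of TMC2 was -5.09 ± 0.15 (SE, limma adjusted p = 1.59e-13) for recovered papillae. It was -2.44 ± 0.15 (SE, limma adjusted p = 5.62e-09) for late controls. Treated minus control was -2.65 ± 0.12 (SE, limma adjusted p = 3.23e-10). TMC1, the paralogue of TMC2, was low throughout, with 0.775, 0.6802, 0.621 and 0.8298 RPKM in recovered papillae. The values were 1.31, 1.36, 1.62 and 1.28 RPKM in late controls and 1.36 and 1.38 RPKM in the starting tissue. Every recovered library lay below every late control and starting library. Recovered minus starting of TMC1 was not called (-0.46 ± 0.18 (SE, limma adjusted p = 0.0515)). It was called after rescaling (adjusted p = 0.0207), with no intensity trend (0.0402) and in fits of only the 10 libraries (0.0393) or the 6 (0.0387). Treated minus control of TMC1 was called (-0.47, limma adjusted p = 0.0405), but that call was lost under 8 of 14 alternatives. MYO7A, the myosin that works at the tip link, had 2.35, 2.84, 3.26 and 2.095 RPKM in recovered papillae. It stood at 8.22, 8.87, 8.33 and 7.49 RPKM in late controls and at 28.4 and 23.4 RPKM in the starting tissue. Recovered papillae kept 10.2% of the starting mean and late controls 31.8%, and the groups did not overlap (-2.89 ± 0.18 (SE, limma adjusted p = 2.47e-09) and -1.54 ± 0.18 (SE, limma adjusted p = 4.54e-06) against the starting tissue, -1.35 ± 0.15 (SE, limma adjusted p = 2.46e-05) between them). CDH23, the cadherin of the upper tip link, fell by 2.59 on the log2 scale in recovered papillae, LOXHD1, a stereocilia membrane protein mutated in human deafness, by 3.06, and MYO3A, a motor of the bundle tip, by 3.49 (limma adjusted p = 2.75e-10, 8.89e-10 and 7.31e-10). For each of these 3 genes treated minus control was also called, at -1.11, -0.95 and -1.23.

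In the hair bundle list the largest falls were of STARD10, a lipid transfer protein, FSCN2, the actin bundler fascin 2, TMPRSS3, a serine protease mutated in human deafness, and ESPNL, an espin-like actin protein. STARD10 had 3.21, 6.13, 3.69 and 5.195 RPKM in recovered papillae. Late controls had 14.2, 18.3, 22.7 and 14.1 RPKM and the starting tissue had 80.7 and 89.3 RPKM. TMPRSS3 had 0.254, 0.8699, 0.495 and 0.351 RPKM in recovered papillae. In late controls TMPRSS3 was at 9.31, 10.9, 6.35 and 9.56 RPKM, and in the starting tissue at 21.4 and 17.2 RPKM. Late controls of TMPRSS3 lay below the starting libraries (-1.03, limma adjusted p = 0.000244), in recovered papillae every value was under 1 RPKM, and treated minus control was -2.74 ± 0.15 (SE, limma adjusted p = 2.86e-09). PTPRQ, the phosphatase at the base of the bundle, fell by 2.33 in recovered papillae (limma adjusted p = 1.64e-08) and by 1.04 in late controls (limma adjusted p = 0.000146), both on the log2 scale, and ATP2B2, the calcium pump of the bundle, by 2.90 and 2.21. The rises in the list were of genes that many cells use, among them RDX, an actin linker of cell surfaces, at 0.84 ± 0.14 (SE, limma adjusted p = 0.000182), and MYO1C, a myosin of membranes, at 0.83 ± 0.16 (SE, limma adjusted p = 0.000399).

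Synapse genes gave the same order of groups as the bundle genes. OTOF, the calcium sensor of hair cell vesicle release, had 3.46, 5.21, 4.84 and 3.46 RPKM in recovered papillae. The values were 17.4, 21.03, 21.6 and 12.3 RPKM in late controls and 85.1 and 99.1 RPKM in the starting tissue. SLC17A8, the transporter that loads glutamate into hair cell vesicles, had 0.198, 0.123, 0.257 and 0.164 RPKM in recovered papillae. It stood at 5.02, 6.17, 6.96 and 5.21 RPKM in late controls and at 25.97 and 25.6 RPKM in the starting tissue. In both genes the late controls lay between the recovered and the starting libraries with no overlap, and treated minus control was -1.85 ± 0.26 (SE, limma adjusted p = 0.000199) for OTOF and -2.52 ± 0.15 (SE, limma adjusted p = 6.85e-09) for SLC17A8. CHRNA10, a subunit of the receptor for efferent nerve endings, fell by 3.59 on the log2 scale in recovered papillae (limma adjusted p = 8.91e-09). SNCG, a synuclein, was listed at 0 in all 4 recovered libraries, against 6.56, 9.73, 4.48 and 7.75 RPKM in late controls and 62.4 and 56.2 RPKM in the starting tissue. S100Z, a small calcium-binding protein, was likewise listed at 0 in all 4 recovered libraries, against 0.395 to 2.18 RPKM in late controls and 23.6 and 17.8 RPKM in the starting tissue. No fold is given for these 2 genes.

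Other large falls in recovered papillae were of SS2, a somatostatin gene, SLC34A2, a sodium and phosphate transporter, KCNAB1, a potassium channel beta subunit, TRIM36, a ubiquitin ligase, and SLC7A14, of a family of cationic amino acid transporters. KCNAB1 had 0.284, 0.227, 0.787 and 0.323 RPKM in recovered papillae. Late controls had 3.28, 3.69, 5.697 and 2.42 RPKM and the starting tissue had 36.5 and 39.8 RPKM. SLC7A14 had 1.33, 1.62, 1.29 and 0.975 RPKM in recovered papillae. In late controls SLC7A14 was at 7.39, 7.798, 6.55 and 5.58 RPKM, and in the starting tissue at 51.9 and 50.7 RPKM. All 5 genes were below the starting range in late controls too, and for all 5 treated minus control was called lower, by 1.74 (KCNAB1) to 2.76 (SS2) on the log2 scale.

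The transcription factors of the hair cell lineage did not move as one. Of 10 tested members 5 fell and none rose in recovered papillae (median -0.65), with 5 lower in late controls (median -0.69) and 4 lower in treated than in control papillae at the late times (2 without replicate 1 of treated 144 h, treated 168 h, control 144 h or control 168 h). GFI1, a zinc finger repressor needed for hair cell survival, had 0.983, 1.501, 1.04 and 1.48 RPKM in recovered papillae. The values were 5.14, 6.49, 6.696 and 6.05 RPKM in late controls and 10.9 and 13.7 RPKM in the starting tissue. Treated minus control was -1.66 ± 0.16 (SE, limma adjusted p = 3.89e-06). POU4F3, the POU factor that hair cells need for maturation and survival, had 2.31, 2.87, 2.14 and 2.55 RPKM in recovered papillae. It stood at 4.37, 3.79, 5.42 and 2.79 RPKM in late controls and at 16.8 and 17.6 RPKM in the starting tissue. It fell in recovered papillae (-2.39 ± 0.20 (SE, limma adjusted p = 6.57e-08)) and in late controls (-1.86 ± 0.20 (SE, limma adjusted p = 1.54e-06)), and values of both overlapped. Treated minus control of POU4F3 was called (-0.53, limma adjusted p = 0.0378), but that call was lost under 9 of 14 alternatives. LHX3, a LIM factor of hair cells, fell by 2.82 on the log2 scale (limma adjusted p = 4.7e-07). ATOH1 had 2.08, 3.89, 1.803 and 1.15 RPKM in recovered papillae. Late controls had 0.587, 1.47, 2.06 and 2.18 RPKM and the starting tissue had 2.21 and 3.89 RPKM. Its recovered and starting values overlapped, and recovered minus starting was not called (-0.36 ± 0.30 (SE, limma adjusted p = 0.355)). The 95% interval of -0.99 to 0.27 on the log2 scale is the range of differences these libraries cannot tell apart. Every late control of ATOH1 lay below both starting libraries. Late control minus starting was not called (-0.68, limma adjusted p = 0.0826), but was under 3 of 12 alternatives, among them rescaling (-0.76, 0.0426). Treated minus control of ATOH1 was not called (0.31, limma adjusted p = 0.424).

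Genes of the tectorial membrane had like medians in recovered papillae and late controls. Of 10 tested members 7 fell and 1 rose in recovered papillae (median -1.44), and 7 fell and 1 rose in late controls (median -1.42; 4 fell without replicate 2 of the starting tissue). TECTB, beta-tectorin of the membrane's matrix, had 23.8, 51.8, 29.6 and 10.6 RPKM in recovered papillae. In late controls TECTB was at 26.1, 43.05, 81.5 and 22.8 RPKM, and in the starting tissue at 1424 and 1464 RPKM. The recovered mean was 2.0% and the late control mean 3.0% of the starting mean, the late groups overlapped, and treated minus control was not called (-0.58 ± 0.36 (SE, limma adjusted p = 0.302)). TECTA, alpha-tectorin, had 10.1, 41.5, 14.1 and 5.29 RPKM in recovered papillae. The values were 1.91, 5.47, 12.4 and 2.41 RPKM in late controls and 241 and 249 RPKM in the starting tissue. It was lower than at the start in recovered papillae (-4.08 ± 0.53 (SE, limma adjusted p = 9.97e-06)) and in late controls (-5.51 ± 0.53 (SE, limma adjusted p = 4.3e-07)), and higher in treated than in control papillae (1.43 ± 0.43 (SE, limma adjusted p = 0.0355)). That last call was lost without replicate 2 of treated 144 h (0.94) or replicate 1 of treated 168 h (1.11). It was also lost without replicate 1 of control 144 h (1.14) or replicate 2 of control 168 h (0.93). With no filter on low values (limma adjusted p = 0.0953) or with only the 10 libraries in the fit (0.128) it was not called either. OTOA, otoancorin, which attaches the membrane to supporting cells, had 3.07, 14.02, 4.29 and 3.26 RPKM in recovered papillae. It stood at 2.93, 5.78, 7.41 and 5.67 RPKM in late controls and at 79.7 and 80.8 RPKM in the starting tissue. Recovered and late control values again overlapped. GSN, the actin-severing protein gelsolin, was the most abundant gene named among the falls, with 147, 565, 317 and 449.9 RPKM in recovered papillae. Late controls had 204, 332, 266 and 314 RPKM and the starting tissue had 4086 and 4099 RPKM. EMILIN2, an elastin interface protein, rose to 12.8, 7.91, 7.504 and 12.1 RPKM in recovered papillae. In late controls EMILIN2 was at 14.8, 11.1, 16.8 and 11.8 RPKM, and in the starting tissue at 3.58 and 1.997 RPKM.

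**Figure D3:**
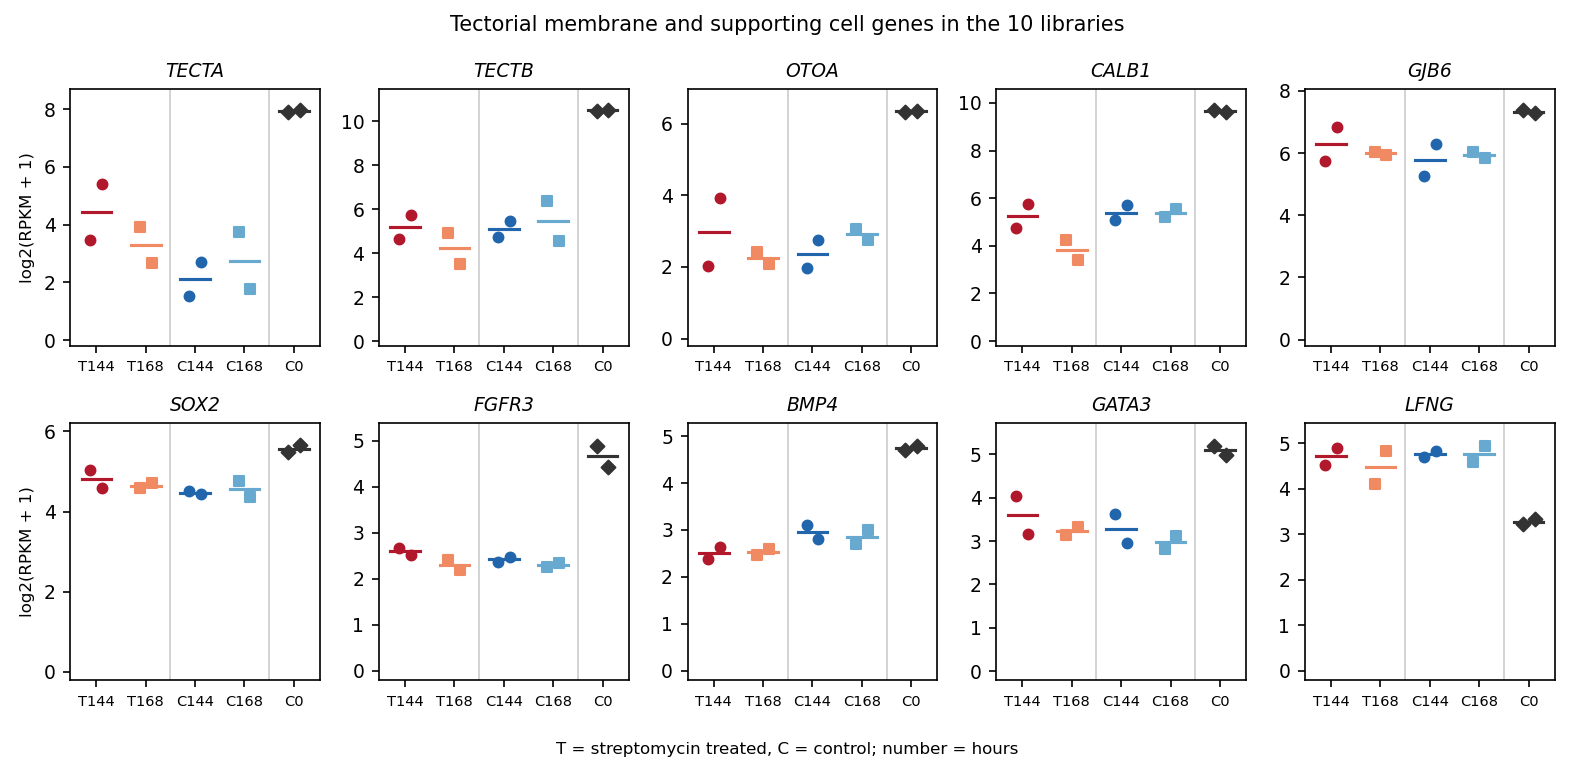
Levels of 10 tectorial membrane and supporting cell genes as log2(RPKM + 1) in each library (points), with the group mean as a line, for treated (T144, T168), control (C144, C168) and starting (C0) papillae. The late treated and late control libraries lie below the starting libraries in 9 panels and above them in LFNG.

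Supporting cell genes were lower in both arms. Of 20 tested members of the supporting cell and prosensory list, 13 fell and 1 rose in recovered papillae (median -0.86), 12 fell and 2 rose in late controls (median -0.74), and 5 were lower and 1 higher in treated than in control papillae at the late times (3 lower without replicate 2 of control 144 h). SOX2, the factor that marks supporting cells and the prosensory field, had 31.8, 23.04, 23.2 and 25.02 RPKM in recovered papillae. The values were 21.9, 20.5, 25.9 and 19.8 RPKM in late controls and 43.7 and 49.3 RPKM in the starting tissue. Recovered papillae held 55.4% and late controls 47.3% of the starting mean, and treated minus control was not called (0.21 ± 0.14 (SE, limma adjusted p = 0.349)). FGFR3, a receptor of supporting cells, had 5.34, 4.76, 4.29 and 3.57 RPKM in recovered papillae. It stood at 4.17, 4.56, 3.75 and 4.08 RPKM in late controls and at 28.7 and 20.5 RPKM in the starting tissue. BMP4, a ligand made in the developing sensory patches of the chick ear, had 4.17, 5.22, 4.49 and 5.07 RPKM in recovered papillae. Late controls had 7.56, 5.995, 5.55 and 6.98 RPKM and the starting tissue had 25.2 and 26.8 RPKM. In FGFR3 the recovered and late control values overlapped, and in BMP4 every recovered library lay below every late control. Treated minus control of BMP4 was not called (-0.39, limma adjusted p = 0.139). GATA3, a factor of inner ear development, fell by 1.68 in recovered papillae and 1.97 in late controls, and EYA1, a coactivator of the same development, by 1.02 and 0.82, all on the log2 scale (limma adjusted p = 1.18e-05, 2.36e-06, 3.86e-05 and 0.000345). HMX3, a homeobox factor of the vestibular ear, rose to 4.15, 3.28, 4.28 and 6.55 RPKM in recovered papillae. In late controls HMX3 was at 3.93, 3.65, 4.09 and 4.49 RPKM, and in the starting tissue at 0.636 and 1.69 RPKM. GJB6, connexin 30 of supporting cell gap junctions, fell by 1.19 on the log2 scale (limma adjusted p = 0.00261).

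Notch genes went both ways. Of 20 tested members 3 rose and 6 fell in recovered papillae (median -0.08), against 21.8% higher and 18.8% lower over all features, 4 rose and 7 fell in late controls, and 1 was higher in treated than in control papillae at the late times. LFNG, the fringe enzyme that tunes ligand binding, had 22.03, 28.98, 16.2 and 27.6 RPKM in recovered papillae. The values were 25.2, 27.5, 22.96 and 29.9 RPKM in late controls and 8.33 and 9.103 RPKM in the starting tissue. The target gene HES1 rose to 8.39, 7.34, 6.46 and 10.7 RPKM in recovered papillae. It stood at 9.31, 8.41, 8.101 and 14.8 RPKM in late controls and at 3.35 and 3.23 RPKM in the starting tissue. The receptor NOTCH2 rose by 1.01 ± 0.15 (SE, limma adjusted p = 4.27e-05) while the receptor NOTCH1 fell (-0.73 ± 0.14 (SE, limma adjusted p = 0.000449)). The target HEY1 had 131, 189.7, 123 and 116 RPKM in recovered papillae. Late controls had 87.03, 125, 141 and 115 RPKM and the starting tissue had 299 and 344 RPKM. In LFNG, HES1 and HEY1 the recovered and late control values overlapped. The ligand DLL4 fell by 1.43 on the log2 scale (limma adjusted p = 1.55e-05). JAG1, the ligand that supporting cells express, was not called (-0.22 ± 0.23 (SE, limma adjusted p = 0.479), 95% interval -0.70 to 0.27). HES5, the target most tied to lateral inhibition in this tissue, was under the filter, at 0 to 0.483 RPKM in recovered papillae, 0 to 0.408 RPKM in late controls and 0.279 and 0.209 RPKM in the starting tissue.

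Growth factor genes of the starting tissue were among the falls. FGF3, a ligand of ear development, had 0.176, 0, 0.2398 and 0.291 RPKM in recovered papillae. In late controls FGF3 was at 1.25, 0.958, 0.607 and 0.463 RPKM, and in the starting tissue at 17.5 and 17.8 RPKM. FGFRL1, a receptor of the family that lacks a kinase, fell by 1.91 on the log2 scale (limma adjusted p = 9.87e-08) and by 1.80 in late controls. Treated minus control of FGFRL1 was not called. In the FGF list 6 of 26 tested members rose and 10 fell in recovered papillae. Over all features 21.8% rose and 18.8% fell. The rises of recovered papillae in this list and in the Wnt and BMP lists below were near or under that share. Late controls had 6 rises and 11 falls in the FGF list, 8 and 14 in the Wnt list, and 12 and 8 in the BMP list. Their shares over all features were 23.7% and 16%. Treated minus control was called lower for 2, 7 and 10 members of these lists, in that order, and higher for 1, 2 and 0. FGF19, a ligand of early ear induction in the chick, rose to 3.23, 1.56, 4.55 and 3.59 RPKM in recovered papillae. The values were 1.22, 0.707, 1.86 and 0.523 RPKM in late controls and 0.583 and 0.187 RPKM in the starting tissue. In FGF3 the recovered libraries lay below all late controls, and in FGF19 the 2 groups overlapped. Treated minus control of FGF19 was called (1.01, limma adjusted p = 0.00384), though not with a pseudocount of 0.1 (1.54, 0.0689). In the Wnt list 8 of 41 tested members rose and 17 fell (11 fell without replicate 2 of the starting tissue). WNT5A, a ligand, and WIF1, an inhibitor, fell by 1.93 and 1.61, and LEF1, a factor that acts in the nucleus, and NOTUM, a feedback inhibitor, rose by 1.38 and 1.45, all on the log2 scale (limma adjusted p = 1.73e-07, 2.04e-05, 0.000195 and 9.4e-06). LEF1 and NOTUM also rose in late controls, by 1.06 and 1.31, and neither was called between treated and control. INHBA, an activin subunit, and TGFB2 fell by 1.59 and 1.55 on the log2 scale in recovered papillae (limma adjusted p = 0.000284 and 0.00018). INHBA also fell in late controls, by 1.28, and was not called between treated and control. In the BMP and TGF-beta list 5 of 38 rose and 12 fell in recovered papillae. Without replicate 1 of the starting tissue 3 of the 38 rose, and without its replicate 2 2 rose.

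Serine synthesis and amino acid genes were among the large rises, and late controls rose by like amounts. Of 24 tested members of the list of ATF4 targets and amino acid stress genes, 21 rose and none fell in recovered papillae (median 1.49), and 21 rose and none fell in late controls (median 1.31). Treated minus control was called higher for 3 of the 24 (6 after rescaling). PHGDH, the first enzyme of serine synthesis from glucose, had the largest fitted rise of the features named here on the log2(RPKM + 1) scale, with 180.1, 128, 117 and 260 RPKM in recovered papillae. It stood at 242, 162, 219 and 251 RPKM in late controls and at 0.656 and 0.865 RPKM in the starting tissue. Both starting libraries were under 1 RPKM and all 8 late libraries over 100 RPKM. The choice of PHGDH as a large difference required its late libraries to lie apart from the starting libraries. The fitted differences were 6.54 ± 0.36 (SE, limma adjusted p = 4.32e-10) for recovered papillae and 6.94 ± 0.36 (SE, limma adjusted p = 1.1e-09) for late controls. None was called between treated and control (-0.40 ± 0.30 (SE, limma adjusted p = 0.399)). PSPH, the last enzyme of the route, had 97.5, 74.2, 69.2 and 99.9 RPKM in recovered papillae. Late controls had 63.3, 55.6, 63.9 and 66.05 RPKM and the starting tissue had 2.79 and 3.48 RPKM. PSAT1, the step between, rose by 3.37 ± 0.26 (SE, limma adjusted p = 2.43e-08). ASNS, asparagine synthetase and an ATF4 target, had 206, 159, 191 and 189.7 RPKM in recovered papillae. In late controls ASNS was at 148, 118, 154 and 153 RPKM, and in the starting tissue at 19.2 and 21.4 RPKM. SFXN1, which carries serine into mitochondria, rose by 3.57 ± 0.22 (SE, limma adjusted p = 2.25e-09). MAT1A, which makes S-adenosylmethionine, had 28.4, 25.7, 24.7 and 36.1 RPKM in recovered papillae. The values were 22.7, 18.4, 17.7 and 29.6 RPKM in late controls and 0.0655 and 0.636 RPKM in the starting tissue. In PSPH and ASNS every recovered library lay above every late control, but treated minus control was not called for PSPH (0.43 ± 0.19 (SE, limma adjusted p = 0.13)) or ASNS (0.38 ± 0.15 (SE, limma adjusted p = 0.0938); 0.43 and 0.0477 after rescaling). In MAT1A the 2 groups overlapped.

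**Figure D4:**
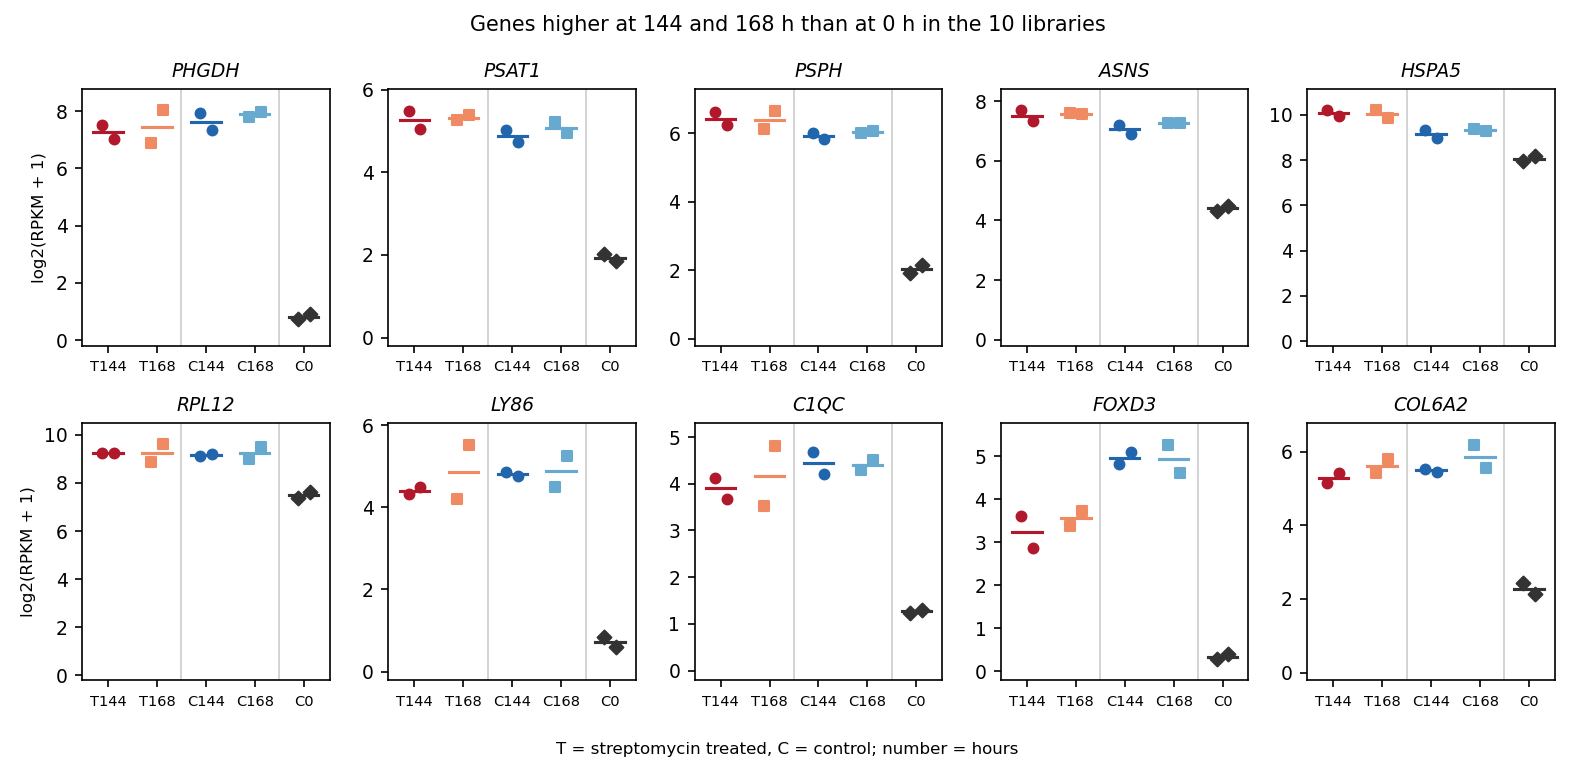
Levels of 10 genes that were higher at 144 and 168 h as log2(RPKM + 1) in each library (points), with the group mean as a line, for treated (T144, T168), control (C144, C168) and starting (C0) papillae. In every panel all 8 late libraries lie above both starting libraries, and in ASNS, FOXD3, HSPA5 and PSPH the treated and control libraries of the late times also lie apart.

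Chaperones rose in part. Of 24 tested members of the list, 12 rose and 2 fell in recovered papillae (median 0.49), 10 rose and 5 fell in late controls (median 0.38; 3 fell without replicate 2 of the starting tissue), and 8 were higher and none lower in treated than in control papillae at the late times (3 higher without replicate 1 of treated 144 h, replicate 2 of control 144 h or replicate 2 of control 168 h, and 5 without replicate 1 of treated 168 h). HSPA5, the main chaperone of the endoplasmic reticulum, had 1197, 992, 1185 and 928 RPKM in recovered papillae. It stood at 640.1, 496, 658 and 631 RPKM in late controls and at 246 and 286 RPKM in the starting tissue. The 3 groups did not overlap, and treated minus control was 0.83 ± 0.18 (SE, limma adjusted p = 0.00555). SERPINH1, the collagen chaperone, rose by 2.24 ± 0.18 (SE, limma adjusted p = 3.77e-08), and CRYAB, a small heat shock protein, by 2.14 ± 0.24 (SE, limma adjusted p = 1.54e-06). HSP25, another small heat shock protein, had 323, 350.5, 171 and 312 RPKM in recovered papillae. Late controls had 83.97, 88.7, 115 and 73.1 RPKM and the starting tissue had 196 and 207 RPKM. Its late controls lay below the starting libraries and its recovered values spread around them, so recovered minus starting was not called (0.47 ± 0.35 (SE, limma adjusted p = 0.305)) and treated minus control was (1.64 ± 0.29 (SE, limma adjusted p = 0.00138)).

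All 59 tested ribosomal protein genes rose in recovered papillae (median 1.37) and in late controls (median 1.15). None was called between treated and control (7 higher after rescaling). Treated minus control was still positive in all 59, with a median of 0.21 against -0.05 over all features. A shift of the list as a whole was not tested. Their summed RPKM was 54090 to 71300 in recovered, 49920 to 61210 in late control and 24020 to 25660 in starting libraries. RPL12, of the large subunit, had 611, 603, 472 and 787 RPKM in recovered papillae. In late controls RPL12 was at 559, 597, 504 and 713 RPKM, and in the starting tissue at 164 and 196 RPKM. Mitochondrially encoded genes rose in all 5 tested members in recovered papillae (median 1.14) and late controls (median 1.5), and treated minus control was called lower for 4 of them. That count was 0 without replicate 2 of treated 144 h or replicate 1 of control 168 h, 1 without replicate 1 of treated 168 h, control 144 h replicate 1 or control 144 h replicate 2, and 2 without replicate 2 of treated 168 h. With no filter on low values that count was 0, and in a fit of the 10 libraries alone it was 1. COX3, a subunit of cytochrome oxidase, had 3507, 3321, 3167 and 3577 RPKM in recovered papillae. The values were 5219, 5196, 5074 and 4601 RPKM in late controls and 1354 and 1706 RPKM in the starting tissue. Treated minus control of COX3 was called (-0.57 ± 0.15 (SE, limma adjusted p = 0.0179)), but not with no filter on low values (0.0946). It was also not called without replicate 2 of treated 144 h or replicate 1 of treated 168 h. The same held without replicate 2 of control 144 h or replicate 1 of control 168 h. The difference in these leave-out fits was -0.57 to -0.52. Nuclear genes of oxidative phosphorylation were near the starting level, with 4 of 55 called higher, 1 lower (7 lower after rescaling) and a median of 0.02.

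Markers of other cell types moved with the late times. In the list of leukocyte markers 20 of 28 tested members rose and 2 fell in recovered papillae (median 1.22), and 23 rose and 1 fell in late controls (median 2.00). Treated minus control was called lower for 10 of the 28 and higher for none (3 lower without replicate 1 of treated 168 h, 18 without its replicate 2, 5 without replicate 2 of control 168 h, and 6 with a pseudocount of 0.1). Their summed RPKM was 401 to 612 in recovered, 637 to 787 in late control and 283 to 288 in starting libraries, so the groups did not overlap. LY86, a partner of a Toll-like receptor relative on macrophages, had 18.9, 21.6, 17.4 and 44.5 RPKM in recovered papillae. It stood at 27.9, 26.04, 21.4 and 37.3 RPKM in late controls and at 0.802 and 0.524 RPKM in the starting tissue. CTSS, cathepsin S of antigen-presenting cells, had 52.9, 58.1, 44.5 and 85.2 RPKM in recovered papillae. Late controls had 100.7, 112, 98.9 and 123 RPKM and the starting tissue had 6.79 and 8.35 RPKM. C1QC, a complement subunit made by macrophages, had 16.4, 11.8, 10.5 and 27.1 RPKM in recovered papillae. In late controls C1QC was at 24.5, 17.5, 18.7 and 21.7 RPKM, and in the starting tissue at 1.36 and 1.47 RPKM. In CTSS every recovered library lay below every late control, and in LY86 and C1QC the recovered and late control values overlapped. CD74, the invariant chain, had 30.5, 29.8, 34.6 and 58.1 RPKM in recovered papillae. The values were 82.4, 136, 87.2 and 96.1 RPKM in late controls and 25.8 and 21.1 RPKM in the starting tissue. Recovered minus starting of CD74 was not called (0.64 ± 0.28 (SE, limma adjusted p = 0.0833); 0.82 and 0.0333 without replicate 1 of treated 168 h), and treated minus control was (-1.40 ± 0.23 (SE, limma adjusted p = 0.000967)). The T cell gene CD3E went the other way, with -1.02 ± 0.21 (SE, limma adjusted p = 0.000808) in recovered papillae, and the T cell markers CD4, CD8A, CD28 and CD5 stayed at or under 0.5001 RPKM in all 10 libraries. IL18, a cytokine in no list, had 17.03, 13.2, 15.3 and 15.98 RPKM in recovered papillae. It stood at 13.3, 10.6, 15.8 and 8.84 RPKM in late controls and at 0.274 and 0.136 RPKM in the starting tissue. LGALS1, galectin 1, also in no list, had 303, 291, 238 and 554 RPKM in recovered papillae. Late controls had 470.4, 558, 508 and 702 RPKM and the starting tissue had 20.4 and 13.8 RPKM.

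Genes of glia and neural crest changed in both arms. In the glia list 6 of 13 tested members rose and 3 fell in recovered papillae (median 0.64), 6 rose and 2 fell in late controls (median 0.56), and 6 were lower and none higher in treated than in control papillae. The summed RPKM of the list was 176 to 258 in recovered, 321 to 404 in late control and 158.5 to 159.7 in starting libraries. FOXD3, a factor of neural crest and early glia, had 11.2, 6.27, 9.44 and 12.4 RPKM in recovered papillae. In late controls FOXD3 was at 27.1, 33.5, 37.2 and 23.5 RPKM, and in the starting tissue at 0.21 and 0.314 RPKM. NGFR, the low affinity neurotrophin receptor of Schwann cells, had 6.86, 5.603, 5.22 and 12.96 RPKM in recovered papillae. The values were 29.7, 44.97, 32.6 and 28.02 RPKM in late controls and 1.45 and 0.541 RPKM in the starting tissue. In both genes the 3 groups were separate, with treated minus control at -1.55 ± 0.26 (SE, limma adjusted p = 0.000933) and -2.06 ± 0.28 (SE, limma adjusted p = 0.000143). SOX10, a factor shared by glia and cells of the ear epithelium, fell in recovered papillae (-0.76 ± 0.13 (SE, limma adjusted p = 0.000152)).

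Connective tissue genes rose in both arms. Of 35 tested mesenchyme markers 19 rose and 2 fell in recovered papillae (median 0.93; 10 rose without replicate 2 of the starting tissue), and 19 rose and 2 fell in late controls (median 1.15). The summed RPKM was 2106 to 2354 in recovered, 3015 to 3467 in late control and 1338 to 1352 in starting libraries. COL6A2, a chain of collagen VI, had 34.4, 41.9, 42 and 55.02 RPKM in recovered papillae. It stood at 45.3, 42.7, 71.6 and 45.9 RPKM in late controls and at 4.37 and 3.42 RPKM in the starting tissue. ACTA2, smooth muscle actin, had 29.6, 42.8, 27.8 and 36.8 RPKM in recovered papillae. Late controls had 23.1, 24.8, 41.8 and 27.7 RPKM and the starting tissue had 0.265 and 0.422 RPKM. The matrix protease MMP2 had 104, 97.9, 115 and 113 RPKM in recovered papillae. In late controls MMP2 was at 151, 100.4, 158 and 91.03 RPKM, and in the starting tissue at 22.2 and 19.5 RPKM. In COL6A2, ACTA2 and MMP2 the recovered and late control values overlapped, and all lay above both starting libraries. WISP1, a matricellular protein, rose by 3.77 ± 0.26 (SE, limma adjusted p = 5.7e-09). Not all matrix genes rose. COL14A1, a fibril-associated collagen, had 15.1, 15.8, 18.9 and 9.497 RPKM in recovered papillae. The values were 10.3, 9.53, 11.3 and 7.78 RPKM in late controls and 133 and 129 RPKM in the starting tissue. COL2A1, the main collagen of cartilage, fell by 2.89 on the log2 scale, and LAMA5, a laminin chain of epithelial basement membrane, by 1.71 (limma adjusted p = 1.38e-07 and 4.47e-08). In late controls COL2A1 fell by 3.47 and LAMA5 by 1.15. In the list of basement membrane and adhesion genes 9 of 33 tested members rose (5 without replicate 1 of the starting tissue) and 10 fell in recovered papillae, 16 rose and 6 fell in late controls, and 16 were lower and none higher in treated than in control papillae at the late times. That count of 16 was 10 without replicate 1 of treated 144 h, 8 without its replicate 2, 8 without replicate 1 of treated 168 h, 9 without replicate 1 of control 168 h and 9 in a fit of the 10 libraries alone.

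Epithelial transport genes fell in recovered papillae. In the list of ion-transporting duct epithelium, 11 of 27 tested members fell and none rose (median -0.34; 7 fell without replicate 2 of the starting tissue), whereas in late controls 7 fell and 3 rose (median 0.04). Treated minus control was called lower for 7 of the 27, for 3 without replicate 1 of treated 144 h or replicate 2 of control 144 h, and for 4 without replicate 1 of treated 168 h or replicate 2 of control 168 h. ATP1B1, the beta subunit of the sodium pump, had 31.4, 28.9, 32.4 and 33.96 RPKM in recovered papillae. It stood at 61.9, 73.8, 61.7 and 55.04 RPKM in late controls and at 124 and 150.4 RPKM in the starting tissue. The sodium bicarbonate transporter SLC4A4 fell by 1.89 in recovered papillae and 1.90 in late controls on the log2 scale (limma adjusted p = 7.59e-08 and 1.04e-07).

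In recovered papillae the cell cycle lists were called higher about as often as all features (21.8%). In the mitosis list 9 of 36 tested members rose and 3 fell in recovered papillae (median 0.32). In late controls 21 of the 36 rose and 1 fell (median 0.56), against 23.7% called higher over all features. Without replicate 1 of the starting tissue 2 of the 36 rose in recovered papillae and 9 in late controls, and without its replicate 2 11 rose in late controls. Treated minus control was called lower for 2 of the 36 (1 in a fit of the 10 libraries alone) and higher for none. Its median was -0.325 against -0.05 over all features, and 4 of the 36 were positive. KIF20A, a kinesin of cell division, rose to 5.32, 3.72, 4.45 and 4.61 RPKM in recovered papillae. Late controls had 4.64, 4.64, 5.402 and 5.01 RPKM and the starting tissue had 0.6997 and 0.732 RPKM. Among DNA replication genes 5 of 30 tested members rose and 2 fell in recovered papillae (median 0.14), with 2 rising without either starting replicate and 3 without replicate 1 of treated 144 h or replicate 2 of treated 168 h. In late controls 7 of the 30 rose and none fell (median 0.19). Treated minus control was called higher for 1 of the 30 and lower for 2 (4 lower with a pseudocount of 0.1). Its median was -0.14, with 8 of the 30 positive. RFC4, a subunit of the clamp loader, rose to 34.9, 26.3, 28.7 and 36.5 RPKM in recovered papillae. In late controls RFC4 was at 21.2, 16.7, 22.7 and 19.6 RPKM, and in the starting tissue at 12.01 and 11.1 RPKM. Treated minus control of RFC4 was called higher (0.63, limma adjusted p = 0.0114), unlike most of its list, and that call was lost under 2 of 14 alternatives. Glycolysis and hypoxia genes went both ways, with 9 of 36 rising and 9 falling in recovered papillae, against 21.8% and 18.8% over all features. Without replicate 1 of the starting tissue 2 rose and 5 fell, without its replicate 2 5 rose and 3 fell, and 4 rose without replicate 1 of treated 144 h and 5 without replicate 1 of treated 168 h or after rescaling. LDHA, lactate dehydrogenase A, was near the starting level, with 1248, 1039, 1312 and 1209 RPKM in recovered papillae. The values were 1344, 1034, 1367 and 1258 RPKM in late controls and 992 and 1210 RPKM in the starting tissue. Its fitted difference was 0.13 ± 0.24 (SE, limma adjusted p = 0.703) (95% interval -0.38 to 0.64). SLC16A1, a lactate and monocarboxylate transporter, rose by 1.89 ± 0.29 (SE, limma adjusted p = 5.52e-05). Of 19 tested cholesterol synthesis genes none was called in recovered papillae, with a median of 0.19.

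**Figure D5:**
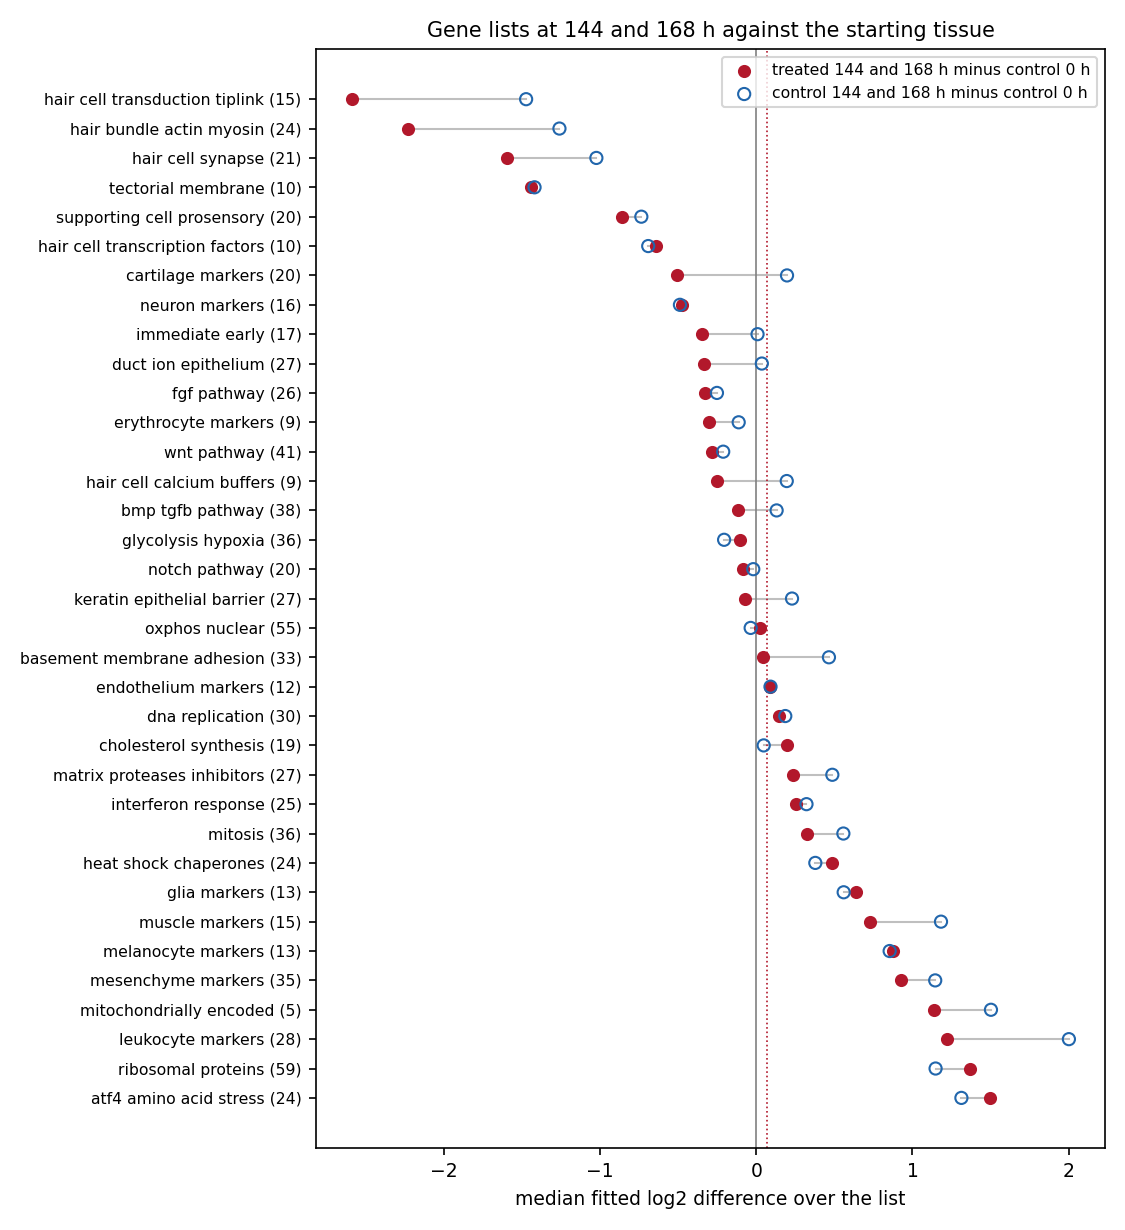
Median fitted log2 difference over the tested members of each gene list (number in brackets) for treated 144 and 168 h minus control 0 h (filled) and control 144 and 168 h minus control 0 h (open), with the median over all features in the first comparison (0.07) as a dotted line. Of 5 hair cell lists 3 lie at the low end, with recovered medians of -2.59 to -1.60 for the transduction, bundle and synapse lists below late control medians of -1.47 to -1.02, and amino acid stress, ribosomal and leukocyte lists at the high end.

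Of the 490 features called higher in recovered papillae than in late controls, only those with a gene symbol were ranked. Among these, the largest differences without overlap of the libraries were of CCK, HSP25 (given above), CYP2C18, PGBD5, ATP6V0D2 and PTPN5. CCK, the peptide cholecystokinin, had 32.6, 45.9, 36.2 and 23.1 RPKM in recovered papillae. It stood at 7.31, 4.41, 11.4 and 2.43 RPKM in late controls and at 198 and 199 RPKM in the starting tissue. It was below the starting level in both arms (-2.53 ± 0.47 (SE, limma adjusted p = 0.000329) and -4.92 ± 0.47 (SE, limma adjusted p = 3.7e-07)), and higher in treated than in control papillae (2.38 ± 0.38 (SE, limma adjusted p = 0.000678)). CYP2C18 and CYP2H1, both cytochrome P450 enzymes of family 2, were higher in recovered than in starting libraries. CYP2C18 had 22.96, 12.9, 34.4 and 22.8 RPKM in recovered papillae. Late controls had 12.7, 3.36, 6.89 and 8.43 RPKM and the starting tissue had 1.62 and 1.95 RPKM. For CYP2H1 treated minus control was 1.34 ± 0.31 (SE, limma adjusted p = 0.00993), and was not called without replicate 1 of treated 144 h (1.09, adjusted p = 0.0542). PTPN5, a tyrosine phosphatase, had 17.96, 11.2, 17.6 and 11.9 RPKM in recovered papillae. In late controls PTPN5 was at 7.41, 4.15, 6.57 and 3.83 RPKM, and in the starting tissue at 1.01 and 1.97 RPKM. Its recovered and late control values did not overlap, which the choice of this gene required. PGBD5, a gene derived from a transposase, had 10, 4.52, 5.63 and 4.46 RPKM in recovered papillae. The values were 3.303, 0.7804, 1.695 and 1.102 RPKM in late controls and 1.099 and 0.985 RPKM in the starting tissue. ATP6V0D2, a subunit of the vacuolar proton pump, had 14.2, 15.7, 17.8 and 9.68 RPKM in recovered papillae. It stood at 4.79, 4.08, 7.36 and 4.23 RPKM in late controls and at 16.6 and 21.7 RPKM in the starting tissue. Its recovered values overlapped those of the starting tissue (-0.41 ± 0.26 (SE, limma adjusted p = 0.23)) and, as its choice required, lay above all late controls (1.33 ± 0.22 (SE, limma adjusted p = 0.000775)). In the downward direction the largest differences without overlap, again among features with a gene symbol, were mostly of genes given above. They were the hair cell genes OCM2, SNCG, TMPRSS3 and TMC2, the somatostatin gene SS2 and NELL1, a secreted protein. Treated minus control of NELL1 was -2.63 ± 0.14 (SE, limma adjusted p = 1.67e-09).

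The 2 recovered time points gave counts of like size against the starting tissue. Treated 144 h minus starting gave 2266 features higher (18.6%) and 1777 lower (14.6%), and treated 168 h minus starting gave 2180 higher (17.9%) and 2092 lower (17.2%). Between treated 168 h and treated 144 h limma called 0 of 12195 features (0%), with 357 at an unadjusted p under 0.05. With no filter on low values 2 were higher and 2 lower, and without replicate 2 of treated 168 h 1 was lower. For 11079 features (90.8%) the 95% interval of that difference lay within 2-fold. Among hair cell genes the difference of 168 h minus 144 h was -0.01 for OCM2, 0.06 for TMC2, 0.02 for MYO7A, -0.04 for OTOF and 0.02 for GFI1 on the log2 scale, and for ATOH1 it was -0.66. For CALB1 it was -1.42, with a 95% interval of -2.27 to -0.57. The adjusted p by limma was 1 in each.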

How the data were processed

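RNA sequencing libraries of chicken basilar papilla were assigned to treatment and time by title. The deposited values are RPKM (reads per kilobase, scaled to library size), computed by the authors. Per the submitters' processing notes, TopHat 1.4.0 and Partek 6.6 were used, with no roles stated. Neither the build nor the annotation nor strand use is given in the sources used here. The series table's 4 columns that match no sample were not used. Counts were not recoverable from the RPKM, so no counting intervals are given; depth was 16.48 to 38.17 M alignments a library.

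The fit used 12195 of 17684 features, those reaching RPKM of 1 in 2 or more of 28 libraries. They were fitted as log2(RPKM + 1) with limma 3.58.1 in R 4.3.3, with 1 mean for each of 16 groups, 12 residual degrees of freedom, an intensity trend and Benjamini-Hochberg adjustment over all features. The 4 groups with 1 library are assumed to vary like the others. The pipeline was tested on simulated data.

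The members compared, the 36 gene lists (924 of 1203 entries matched a feature, 13 by RefSeq synonym, after 9 synonyms pointing to another gene were dropped) and the tests were chosen with earlier results of these data known. Genes were named by rule: the 12 largest called rises and falls without overlap for recovered minus starting, 6 each way for the late control comparison and treated minus control, up to 4 called members per direction of each list, and 36 followed genes. The T cell markers were named for their low values. Without strand, overlapping genes cannot be told apart. Alternatives were the pseudocount (0.1), no filter, no trend, rescaling by median of ratios, a block for replicate number, fewer samples in the fit, and each library left out.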

Additional observations from a re-analysis of the deposited data

Results flagged for a closer look

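In 222 groups of 4 libraries (the recovered and the late control libraries of the 111 genes given values), 9 had 1 library whose gap to its nearest neighbour, as a share of the group's range in log2(RPKM + 1), passed Dixon's 95% critical value for 4 samples. Chance flags about 1 in 20 groups. Among recovered libraries, CYP2H1 was lower in replicate 2 of treated 144 h (27.9 RPKM, the others 55.3 to 57.8, gap share 0.938), LEF1 was lower in replicate 2 of treated 168 h (3.69 RPKM, the others 6.28 to 6.50, gap share 0.936), and HSP25 was lower in replicate 1 of treated 168 h (170.6 RPKM, the others 312 to 350.5, gap share 0.839). Among late controls, replicate 2 of control 144 h was low in ASNS (118 RPKM, the others 148 to 154, gap share 0.833) and HSPA5 (496 RPKM, the others 631 to 658, gap share 0.850) and high in PTPRQ (3.12 RPKM, the others 2.18 to 2.27, gap share 0.895). Replicate 2 of control 168 h was low in SLC34A2 (2.92 RPKM, the others 4.32 to 4.64, gap share 0.838) and TRIM36 (4.16 RPKM, the others 4.82 to 4.88, gap share 0.917), and its replicate 1 was high in COL6A2 (71.6 RPKM, the others 42.7 to 45.9, gap share 0.863).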

How the results depend on the processing

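No called difference of the 110 tested genes given values changed sign under an alternative, though 23 of 330 differences, none of them called, did. Of the 102 called in recovered minus starting 101 stayed called under every alternative, HBAA being the exception. The naming rule picked large called differences, mostly of this comparison, so that count describes the named genes and not all features. For late control minus starting 97 of 101 stayed called, and for treated minus control 43 of 55. Because of that naming rule these shares cannot rank the comparisons. Calls of treated minus control were lost both when single libraries were left out and under other alternatives, such as the pseudocount for FGF19. Leaving out 1 library gave 1602 to 2771 higher and 1512 to 2292 lower calls for recovered minus starting, 1886 to 2644 higher and 1278 to 1874 lower for late controls, 172 to 510 higher and 636 to 1586 lower for treated minus control, 1249 to 1807 higher for treated 144 h minus starting, 1327 to 2052 higher for treated 168 h minus starting, and 0 to 1 lower between the recovered times. Rescaling gave 962 higher in treated minus control, and a fit of only the 10 libraries gave 801 lower. With no filter, 2 features were higher and 2 lower between the recovered times, and 13368 (recovered) and 13429 (late control) intervals lay within 2-fold, because 17684 features were tested. The mean distance to the starting tissue was 1.17 (recovered) and 1.10 (late control) with a pseudocount of 0.1, and 0.710 and 0.686 with no filter; the cause was not tested.

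Replicate numbers were not treated as pairs, since the labels tie them to nothing shared. Same-numbered deviations correlated at 0.033 to 0.478 over 10 pairs of compared groups, 8 of them over 0.1, and at 0.214 to 0.478 over the 6 pairs among the late groups. Same-numbered libraries of 144 and 168 h lay 0.342 and 0.350 apart in treated and 0.321 and 0.296 apart in control papillae. These distances were below those between the 2 libraries of each late group (0.366 to 0.468). A replicate block gave 3045 higher and 2533 lower calls in recovered papillae, against 2663 and 2295 without it, and 704 higher and 1611 lower in treated minus control, against 490 and 1260. With the block CALB1 was called in treated minus control (adjusted p = 0.0442) and CALB2 in recovered minus starting (adjusted p = 0.0367). With 2 starting libraries, every difference from the start rests on both, and RPKM without counts gives no interval for a single library.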

Other observations

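Genes outside the lists stood among the largest changes. AGR2, a disulfide isomerase of secretory cells, had 293, 317, 269 and 309.5 RPKM in recovered papillae. Late controls had 131, 188, 134 and 259.7 RPKM and the starting tissue had 20.3 and 28.1 RPKM. Recovered minus starting was 3.58 ± 0.39 (SE, limma adjusted p = 1.55e-06). APOA1, an apolipoprotein, had 508, 552, 474 and 731 RPKM in recovered papillae. In late controls APOA1 was at 624, 431, 849 and 424 RPKM, and in the starting tissue at 70.6 and 27.5 RPKM. Its recovered and late control values overlapped. FABP5, a fatty acid binding protein, and GPNMB, a glycoprotein of lysosomes and melanosomes, rose in recovered papillae (3.31 ± 0.39 (SE, limma adjusted p = 3.48e-06) and 3.52 ± 0.30 (SE, limma adjusted p = 7.48e-08)) and were lower in treated than in control papillae (-1.51 ± 0.32 (SE, limma adjusted p = 0.00541) and -1.14 ± 0.24 (SE, limma adjusted p = 0.00565)). ATP12A, a proton and potassium pump, had 2.098, 3.38, 1.18 and 2.84 RPKM in recovered papillae. The values were 0.7195, 0.938, 0.809 and 0.886 RPKM in late controls and 26.1 and 30.6 RPKM in the starting tissue.

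In the muscle list 10 of 15 tested members rose in recovered papillae and 10 in late controls, while TNNC2, a troponin, had 2.58, 7.05, 2.87 and 4.42 RPKM in recovered papillae. It stood at 7.63, 23.4, 8.72 and 14.4 RPKM in late controls and at 34.4 and 38.7 RPKM in the starting tissue. In the erythrocyte list 4 of 9 tested members fell in recovered papillae, and 0 without replicate 1 of the starting tissue. The globin gene HBAA had 3.23, 1.41, 0.839 and 9.28 RPKM in recovered papillae. Late controls had 3.28, 6.07, 1.28 and 3.24 RPKM and the starting tissue had 32.03 and 11.4 RPKM. Its starting libraries differed from each other by more than 2-fold, and its call in recovered papillae (-2.44 ± 0.78 (SE, limma adjusted p = 0.0189)) was lost without replicate 1 of the starting tissue (-1.74, adjusted p = 0.219), without replicate 1 of treated 168 h (-1.82, 0.0672) and with no filter on low values (-2.44, 0.0601).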
